A study of Mus musculus with 6 samples.

Results

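The genes described here are 10 genes of the primitive endoderm and of the basement membrane that this tissue lays down. They are the transcription factors Gata4, Gata6, Sox7 and Sox17, the growth factor receptor Pdgfra, the endocytic adaptor Dab2, the endocytic receptor Cubn and the laminin chains Lama1, Lamb1 and Lamc1. They were taken by symbol from the 28584 gene symbols of the deposited table, and each was found once. The data are 6 RNA-seq libraries of mouse embryonic stem cells (mESCs) at P10, 10 passages after a change of medium, in 3 groups of 2 biological replicates. The cells were 1 line from a C57BL6/129S6 blastocyst. Before the change, the line had 5 passages in serum medium with LIF on mitomycin C-inactivated MEF feeder cells, mouse embryonic fibroblasts that no longer divide. Whether feeder cells were kept after the change is not given in the sources used here. LIF-ESCs then grew in serum medium with 1000 U/mL LIF, OSM-ESCs in the same medium with 10 ng/mL oncostatin M (OSM) and no LIF, and the control -LIF-ESCs in the same medium without either cytokine (with LIF, with OSM and without cytokine in the values given). LIF and OSM are related cytokines that both activate Stat3. The extraction notes of the libraries name rOvaries, whereas their cell type is given as embryonic stem cells, and Pou5f1, which encodes the pluripotency factor Oct4, stood at 540 and 551 TPM in -LIF-ESCs and between 1147 and 1190 TPM in the other 4 libraries.

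In the blastocyst, FGF signalling splits the inner cell mass into the epiblast, which keeps Nanog, and the primitive endoderm, which keeps Gata6. Gata6 acts early in this lineage together with the receptor Pdgfra, and Sox17, Gata4 and Sox7 follow. The primitive endoderm then forms the visceral endoderm, which absorbs maternal nutrients through Cubn and its adaptors, and the parietal endoderm, which secretes a thick basement membrane rich in laminin and collagen IV. mESC cultures are known to hold some cells that express primitive endoderm genes, and mESCs express laminin chains themselves.

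Expression is given as TPM, in which read numbers are corrected for gene length and every library has the same total, so levels of different genes can be set side by side. Whole reads recovered from the TPM gave 20712941 to 28994418 reads per library. Groups were compared as log2(TPM + 1) with limma over 18556 genes, those that reached 1 TPM in 2 or more libraries, a scale that understates the change of a gene near or under 1 TPM. A gene was called, higher or lower, where the adjusted p was under 0.05 and the log2 fold change was 1 or more in size. With 2 libraries a group, the smallest two-sided p of an exact permutation test is 0.333, and the p-values given are those of the limma model. The median over all genes of the log2 fold change against -LIF-ESCs was 0.165 with LIF and 0.182 with OSM, and that between OSM-ESCs and LIF-ESCs was 0.00768.

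Against -LIF-ESCs, most of the genes were expressed at higher levels with either cytokine. In LIF-ESCs, 7 of the 10 genes were called higher and 0 lower, where 13.3% of all genes tested were called higher and 8.09% lower. With OSM, 5 were called higher and 0 lower, against 14.2% and 7.86% of all genes. The lean of all genes toward higher calls depended on the scaling. With LIF 2470 genes were called higher and 1502 lower, which became 1945 and 1910 once libraries were rescaled by the median ratio, and with OSM 2630 and 1459 became 2059 and 1907. After rescaling, 6 of the 10 genes were called higher with LIF and 5 with OSM. The 5 genes called with OSM were Gata4, Gata6, Sox7, Pdgfra and Lama1, and Cubn and Lamc1 were called in LIF-ESCs besides. Without the fold limit, all 10 genes in LIF-ESCs and 7 in OSM-ESCs were higher at an adjusted p under 0.05. Of all genes, 42.2% and 42.9% were higher by this rule. After rescaling, the counts of the 10 genes were 8 and 6, without Lamb1 in either group and without Dab2 in LIF-ESCs. The share of all genes was not counted for this rule after rescaling, and the percentages given are those before it. The median log2 fold change of the 10 genes was 1.503 with LIF and 1.10 with OSM. Sox17 and Cubn reached 1 TPM in LIF-ESCs alone and entered the test through that group. Of the 8 genes that reached it in more than 1 group, 6 were called higher in LIF-ESCs and 5 in OSM-ESCs, and 0 were called between the cytokines. Both comparisons share the -LIF-ESCs libraries and are not independent.

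**Figure D1:**
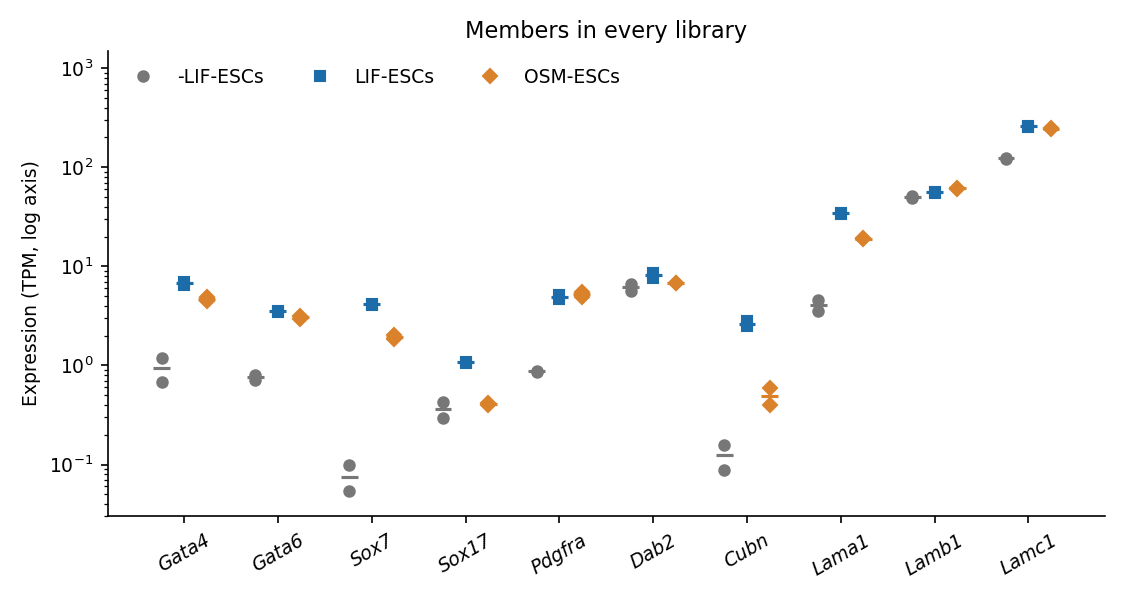
Expression of the 10 genes in every library, in TPM on a log axis, with grey circles for -LIF-ESCs, blue squares for LIF-ESCs, orange diamonds for OSM-ESCs and a short line at the mean of the 2 libraries of a group. The 2 libraries of a group lie close together except in genes near or under 1 TPM. The OSM-ESCs lie between the other groups for Gata4, Gata6, Sox7, Dab2, Cubn, Lama1 and Lamc1, and Lamb1 and Dab2 stay within a narrow band.

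Between OSM-ESCs and LIF-ESCs, Cubn was the 1 gene of the 10 that was called, and it was lower in OSM-ESCs. No gene of the 10 was called higher. Calls were rare in this comparison, with 0.0485% of all genes called lower and 0.0323% called higher. At an unadjusted p under 0.05, 5 of the 10 genes were lower (Gata4, Sox7, Sox17, Cubn and Lama1), against 5.5% of all genes, and Lamb1 was higher, against 9.8%. In 8 of the 10 genes both OSM-ESCs libraries were below both LIF-ESCs libraries, as in 20.9% of all genes, and in Lamb1 both were above, as in 26.3%. The median log2 fold change of the 10 genes was -0.335. Sox17 and Cubn, which entered the test through LIF-ESCs alone, stand among the 5 genes and among the 8, and count in this median. Entry through the group where a gene is high favours a lower value with OSM. Apart from them, the genes lower at an unadjusted p under 0.05 were Gata4, Sox7 and Lama1.

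**Figure D2:**
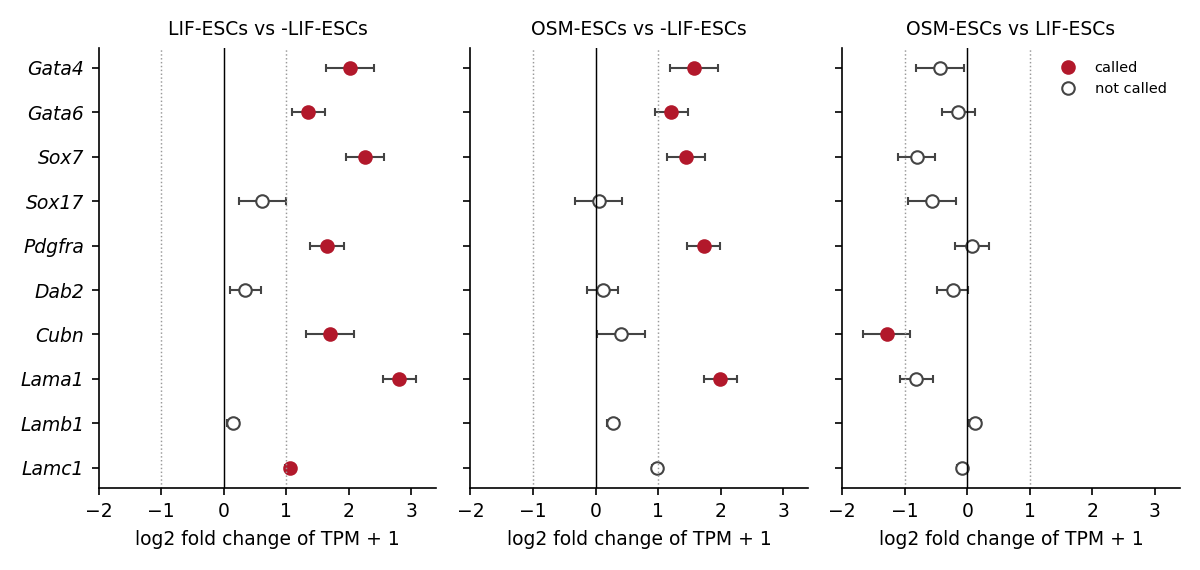
Log2 fold change of TPM + 1 for the 10 genes in the 3 comparisons, with bars for the 95% interval of the model, filled red circles for genes that were called and open circles for the others, and dotted lines at a log2 fold change of 1 in either direction. The points of the first 2 panels lie at or above 0, and in the third panel Cubn, at -1.29, is the one filled point.

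Gata4 and Gata6 encode zinc finger transcription factors, and forced expression of either turns mESCs into endoderm. Gata4 (chr14:63198922-63271692, minus strand, GRCm38) stood at 0.68 and 1.18 TPM without cytokine, at 6.44 and 7.01 TPM with LIF and at 4.94 and 4.48 TPM with OSM. The groups did not overlap, and the mean TPM was 7.23-fold higher with LIF and 5.06-fold higher with OSM than without. The log2 fold change was 2.01 (SE 0.15, adjusted p = 0.000169) and 1.58 (adjusted p = 0.000414). Gata6 (chr18:11052064-11085635, plus strand) stood at 0.72 and 0.81 TPM without cytokine, at 3.44 and 3.57 TPM with LIF and at 2.98 and 3.17 TPM with OSM. It rose by 1.35 with LIF (SE 0.10, adjusted p = 0.000186) and by 1.21 with OSM (adjusted p = 0.000281) on the log2 scale. Between the cytokines neither factor passed the test after adjustment. The difference of OSM-ESCs from LIF-ESCs was -0.44 for Gata4 (95% interval -0.82 to -0.05, adjusted p = 0.278) and -0.15 for Gata6 (95% interval -0.41 to 0.12, adjusted p = 0.58). The ratio of Gata4 to Gata6 in TPM was 0.94 and 1.47 without cytokine, 1.87 and 1.96 with LIF and 1.66 and 1.41 with OSM.

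Of the other GATA factors, Gata1 and Gata5 stayed under 1 TPM in every library and were not tested. Gata3, a factor of the trophoblast and other lineages, moved the opposite way to Gata4 and Gata6, from 4.29 and 4.84 TPM without cytokine to 0.99 and 1.31 TPM with LIF. Its log2 fold change was -1.37 with LIF (adjusted p = 0.000362) and -0.999 with OSM (adjusted p = 0.00119), where it missed the fold limit. Zfpm1, which encodes a cofactor that binds GATA factors, was at 9.35 and 9.26 TPM without cytokine and at 4.81 to 5.45 TPM with either cytokine (log2 fold change -0.75 with LIF and with OSM). Zfpm2, the other cofactor of this kind, had a log2 fold change of 0.46 with LIF and 0.68 with OSM. Gata2 had -0.20 and -0.03. Of the 5 genes tested in this list, which also holds Sox18, 0 were called higher and 1 lower with LIF and 0 in either direction with OSM.

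Sox7 and Sox17 belong to the SOX-F group of transcription factors, which act in endoderm and in blood vessels. Sox7 (chr14:63943673-63950732, plus strand) had 2 and 3 reads in the -LIF-ESCs libraries, 130 and 122 with LIF and 61 and 82 with OSM. Its level was thus 0.054 and 0.098 TPM, 4.20 and 4.10 TPM, and 1.83 and 2.05 TPM. With so few reads without cytokine the fold is known only loosely. Scaled for depth, reads were 56.5 times as many with LIF (95% counting interval 23.9 to 176) and 26.5 times as many with OSM (11.1 to 83.0). The log2 fold change of TPM + 1 was 2.26 (SE 0.12, adjusted p = 4.99e-05) and 1.45 (adjusted p = 0.000225). Sox7 was lower with OSM than with LIF by a log2 fold change of -0.81 (95% interval -1.11 to -0.51), with an adjusted p of 0.0677.

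Sox17 (chr1:4490931-4497354, minus strand) was higher with LIF and not detectably so with OSM. It stood at 0.43 and 0.29 TPM without cytokine, at 1.09 and 1.07 TPM with LIF and at 0.41 and 0.40 TPM with OSM. The LIF-ESCs libraries lay above the other 4, and those of OSM-ESCs lay between the 2 of -LIF-ESCs. In reads, 95 with LIF against 36 without cytokine gave a ratio of 2.96 (95% counting interval 2.00 to 4.47), and 43 with OSM gave 1.11 (0.695 to 1.78). The log2 fold change against -LIF-ESCs was 0.62 with LIF (adjusted p = 0.0146, under the fold limit, and 0.0581 or 0.054 without replicate 1 or 2 of LIF-ESCs) and 0.05 with OSM (95% interval -0.33 to 0.43, adjusted p = 0.784). OSM-ESCs differed from LIF-ESCs by -0.57 (adjusted p = 0.19). Of its exons, 804 of 4772 bases overlap a gene model on the opposite strand, and whether reads were counted by strand is not given in the sources used here. Sox18, the remaining SOX-F gene and a factor of blood and lymph vessels, was at 0.99 to 2.24 TPM, with a log2 fold change of -0.04 with LIF and -0.10 with OSM. The order of the pair Sox7 and Sox17 differed between groups, since the ratio of Sox7 to Sox17 was 0.126 and 0.334 without cytokine, 3.84 in both LIF-ESCs libraries, and 4.41 and 5.16 with OSM.

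Pdgfra, the receptor for PDGF that marks the early primitive endoderm and also fibroblasts, rose with either cytokine. It lies at chr5:75152292-75198215 on the plus strand. Pdgfra stood at 0.86 and 0.88 TPM without cytokine, at 4.67 and 5.11 TPM with LIF and at 5.57 and 4.87 TPM with OSM. The libraries of LIF-ESCs and OSM-ESCs overlapped, and both groups were above -LIF-ESCs. Pdgfra rose by 1.65 with LIF (SE 0.11, adjusted p = 9.67e-05) and by 1.73 with OSM (adjusted p = 8.05e-05) on the log2 scale, and the difference between the cytokines was 0.08 (95% interval -0.19 to 0.35). Of its ligands, Pdgfa was the most abundant, at 26.1 and 24.4 TPM without cytokine, 34.0 and 30.9 TPM with LIF and 44.1 and 40.0 TPM with OSM. Pdgfc, a further ligand of this receptor, rose from 3.00 and 3.55 TPM to between 20.2 and 23.3 TPM in the other 4 libraries (log2 fold change 2.38 with LIF and 2.47 with OSM). Pdgfb fell from 20.4 and 18.4 TPM to between 1.23 and 2.46 TPM (log2 fold change -2.84 and -3.08). Pdgfd, a ligand of the beta receptor, was called with OSM (1.17, adjusted p = 0.0031) and had 0.86 with LIF. The beta receptor Pdgfrb was at 5.92 and 5.91 TPM without cytokine, 7.20 and 7.02 TPM with LIF and 10.6 and 9.50 TPM with OSM. In this list of 5 genes, 1 was called higher and 1 lower with LIF, and 2 higher and 1 lower with OSM.

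Dab2 and Cubn act in one route of uptake. Cubilin, the product of Cubn, is held in the membrane by amnionless (Amn), works beside megalin (Lrp2), and is carried inward by adaptors such as Dab2. Promoter sequences from RefSeq (GRCm38.p6), 250 bases before each transcript start, were at hand for 4 of the 10 genes (Cubn, Pdgfra, Lamb1 and Dab2). They were searched on both strands for a GATA site (the letters GATA with A or T before them and A or G after them), a SOX site written AACAAT and a Stat site written TTCCNGGAA. Over all 32851 promoter windows, 26.5% held such a GATA site, 9.42% the SOX site and 0.913% the Stat site. The windows of these members held 1 match, a TGATAA in the first Dab2 window that starts 179 bases before the transcript start. A match is a string of letters and was not tested for binding. The Dab2 window (chr15:6299539-6299788, plus strand) is shown for this match, in capitals, and the Cubn window (chr2:13491877-13492126, minus strand), which held none, is shown because Cubn differed most between the cytokines.
Dab2: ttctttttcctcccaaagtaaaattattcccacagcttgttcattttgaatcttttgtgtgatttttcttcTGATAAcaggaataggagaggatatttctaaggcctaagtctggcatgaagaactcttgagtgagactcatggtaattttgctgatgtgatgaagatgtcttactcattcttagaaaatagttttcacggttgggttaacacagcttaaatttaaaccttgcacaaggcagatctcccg
Cubn: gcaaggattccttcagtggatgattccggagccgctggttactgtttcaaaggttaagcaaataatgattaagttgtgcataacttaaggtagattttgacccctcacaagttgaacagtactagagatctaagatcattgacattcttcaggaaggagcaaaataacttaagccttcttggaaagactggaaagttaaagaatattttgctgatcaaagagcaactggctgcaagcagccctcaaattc

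Dab2 (chr15:6299788-6440712, plus strand) varied little. It stood at 5.69 and 6.65 TPM without cytokine, at 8.58 and 7.62 TPM with LIF and at 6.73 and 6.74 TPM with OSM. LIF-ESCs lay above the other 4 libraries, and OSM-ESCs lay just above -LIF-ESCs. The log2 fold change was 0.35 with LIF (SE 0.10, adjusted p = 0.025) and 0.11 with OSM (95% interval -0.14 to 0.36, adjusted p = 0.353), and rescaling by the median ratio took them to 0.19 (adjusted p = 0.136) and -0.05. The adjusted p with LIF was also 0.111 without replicate 1 of -LIF-ESCs and 0.119 without replicate 1 of LIF-ESCs.

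Cubn (chr2:13276338-13491813, minus strand) showed the largest difference of the 10 genes between the cytokines. It stood at 0.089 and 0.158 TPM without cytokine, at 2.52 and 2.78 TPM with LIF and at 0.590 and 0.397 TPM with OSM, from 15 and 22, 353 and 374, and 89 and 72 reads. No libraries of different groups overlapped, and in TPM the OSM-ESCs lay nearer to -LIF-ESCs than to LIF-ESCs. On the log2 scale of recovered reads the 2 distances were less unequal, at 1.88 from -LIF-ESCs and -2.46 from LIF-ESCs (limma voom). Scaled for depth, reads were 22.0 times as many with LIF as without cytokine (95% counting interval 15.8 to 31.5) and 4.04 times as many with OSM (2.81 to 5.94). The log2 fold change against -LIF-ESCs was 1.70 with LIF (SE 0.15, adjusted p = 0.00031) and 0.41 with OSM (adjusted p = 0.0572). Between OSM-ESCs and LIF-ESCs it was -1.29 (95% interval -1.67 to -0.91, adjusted p = 0.0471), with the mean TPM of OSM-ESCs at 0.186 of that of LIF-ESCs. This call was narrow. Cubn reached the minimum of 1 TPM in LIF-ESCs alone, and with no minimum the adjusted p was 0.0444. The call was lost when any 1 of the 6 libraries was left out, with adjusted p between 0.123 and 0.273, while the log2 fold change stayed between -1.38 and -1.20. Gm13270, a gene model on the opposite strand that overlaps 368 bases of Cubn exons, was also highest with LIF. It was at 0.101 and 0.222 TPM without cytokine, 0.709 and 0.611 TPM with LIF and 0.227 and 0.151 TPM with OSM. Whether reads were counted by strand is not given, and the part of either gene in the level of the other was not tested.

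Amn followed the order of Cubn, at 1.29 and 1.46 TPM without cytokine, 4.92 and 4.81 TPM with LIF and 2.20 and 2.28 TPM with OSM. It rose by 1.30 on the log2 scale with LIF (adjusted p = 0.000176) and had 0.45 with OSM, and OSM-ESCs differed from LIF-ESCs by -0.86 (adjusted p = 0.0464, under the fold limit). Of the 9 genes of this uptake route, 3 were called higher with LIF, 1 higher with OSM, and 0 between the cytokines. Folr1, a folate receptor, rose by 1.82 with LIF and 1.97 with OSM. Lrpap1, a chaperone of megalin, was called with LIF (1.01) and had 0.96 with OSM. Apart from Amn, the genes of this route had log2 fold changes of -0.16 to 0.24 between OSM-ESCs and LIF-ESCs.

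The chains Lama1, Lamb1 and Lamc1 join into the laminin trimer of the first embryonic basement membranes, and they did not move together. Lama1 (chr17:67697259-67822647, plus strand) stood at 4.55 and 3.53 TPM without cytokine, at 33.8 and 34.6 TPM with LIF and at 19.3 and 18.7 TPM with OSM. The groups did not overlap, and the mean was 8.46-fold higher with LIF and 4.71-fold higher with OSM than without. On the log2 scale Lama1 rose by 2.81 (SE 0.10, adjusted p = 1.83e-05) and by 2.00 (adjusted p = 4.62e-05), the largest log2 fold changes of TPM + 1 among the 10 genes in both comparisons. Low genes count for less on this scale, and with a pseudocount of 0.1 those of Sox7 were larger (4.61 and 3.55, against 3.06 and 2.22 for Lama1). OSM-ESCs held 0.557 of the mean TPM of LIF-ESCs, a log2 fold change of -0.81 (95% interval -1.07 to -0.55) that did not pass the adjustment (adjusted p = 0.0577).

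Lamb1 (chr12:31265234-31329644, plus strand) was nearly level, at 49.4 and 51.0 TPM without cytokine, 56.2 and 55.5 TPM with LIF and 62.0 and 60.4 TPM with OSM. Its log2 fold change was 0.15 with LIF (adjusted p = 0.0172), which turned to -0.02 after rescaling by the median ratio, and 0.28 with OSM (adjusted p = 0.00162), which became 0.10 (adjusted p = 0.053). Without replicate 1 of -LIF-ESCs or either replicate of LIF-ESCs, the adjusted p with LIF was 0.0619 to 0.084. Lamc1 (chr1:153218922-153332786, minus strand), the most abundant of the 10 genes, was at 122 and 125 TPM without cytokine, 262 and 257 TPM with LIF and 248 and 243 TPM with OSM. Its mean was 2.10-fold higher with LIF and 1.99-fold higher with OSM. It sat at the fold limit, with a log2 fold change of 1.06 with LIF, called, and 0.98 with OSM, not called (adjusted p = 1.03e-05 and 1.22e-05). The 2 values differed by -0.08 (95% interval -0.16 to 0.00), and without replicate 2 of -LIF-ESCs the second was 1.00 and called.

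The proportions of the 3 chains differed between the groups accordingly. For each Lama1 transcript there were 26.9 and 35.5 of Lamc1 without cytokine, 7.75 and 7.45 with LIF and 12.8 and 13.0 with OSM. For each Lamb1 transcript there were 2.48 and 2.46 of Lamc1 without cytokine, 4.66 and 4.64 with LIF and 4.005 and 4.03 with OSM. In all 6 libraries Lama1 was the least abundant chain of the trimer.

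Lama5, the alpha chain of many epithelia, was the main alpha chain throughout. It stood at 60.2 and 59.5 TPM without cytokine, 56.3 and 55.1 TPM with LIF and 66.4 and 64.3 TPM with OSM, with log2 fold changes of -0.10 and 0.12 against -LIF-ESCs. Lama1 made up 6.78% and 5.37% of alpha-chain TPM without cytokine, 35.4% and 36.5% with LIF and 21.1% and 21.0% with OSM. The summed TPM of the 5 alpha chains was 67.1 and 65.8 without cytokine, 95.3 and 94.8 with LIF and 91.7 and 89.1 with OSM. Most of the gain with LIF was thus Lama1, with Lama2 at no more than 0.715 TPM, Lama3 at 1.31 to 1.67 TPM and Lama4 at 0.94 to 4.02 TPM over the libraries. Lama4, a chain of vessel and mesenchyme laminins, had log2 fold changes of 0.97 with LIF and 1.25 with OSM, the second called. Of the other chains, Lamb3 fell (log2 fold change -1.67 and -1.97) and Lamb2 had 0.49 and 0.55. Of the 6 tested chains outside the 10 genes, 0 were called higher and 1 lower with LIF, and 1 higher and 1 lower with OSM. Lamc3 was not analysed here.

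**Figure D3:**
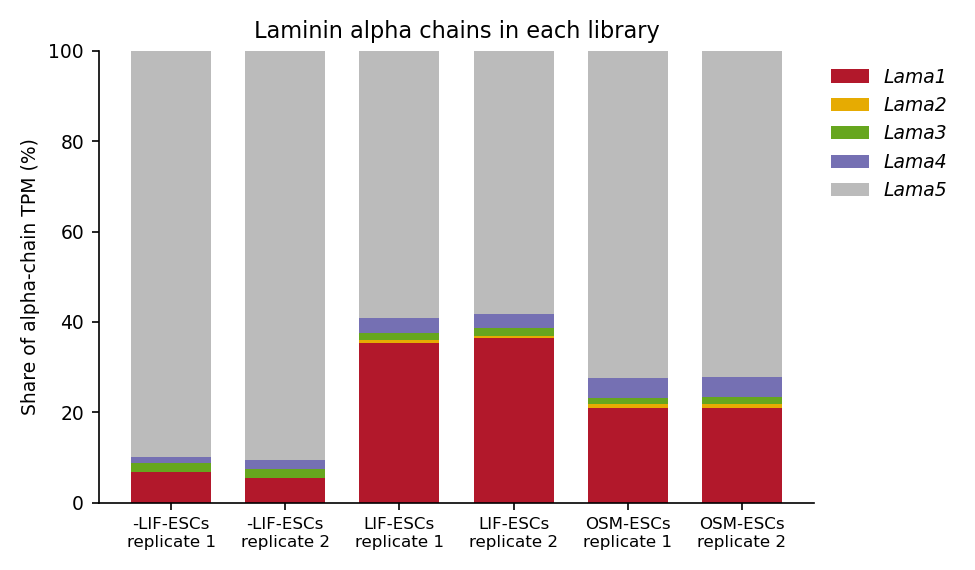
Share of each laminin alpha chain in the summed alpha-chain TPM, in percent, with 1 stacked bar per library. The red Lama1 segment takes 5.37% to 6.78% without cytokine, 35.4% to 36.5% with LIF and 21.0% to 21.1% with OSM, and the grey Lama5 segment the greatest share in each.

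Some of the other basement membrane genes rose with the cytokines as well. Of 16 tested, 5 were called higher and 0 lower with LIF, and likewise 5 and 0 with OSM. These were Smoc2 (log2 fold change 2.69 with LIF and 3.11 with OSM), Nid1 (1.65 and 1.73), Smoc1 (1.23 and 1.06), Ntn4 (1.17 and 1.14) and Col4a2 (1.01 and 1.18). Without the fold limit, 11 of the 16 were higher and 5 lower at an adjusted p under 0.05 in each comparison. The summed TPM of the list was 833 to 843 without cytokine, 820 to 847 with LIF and 925 to 935 with OSM, so it was level with LIF. Nid1 encodes nidogen, which links laminin to collagen IV, and Col4a2 a collagen IV chain. Nid1 stood at 19.6 and 21.0 TPM without cytokine, 66.6 and 64.7 TPM with LIF and 71.1 and 68.1 TPM with OSM, so its libraries of both cytokines lay far above those without. Between the cytokines 0 of the 16 were called, and their median log2 fold change was 0.152 where that of the 10 genes was -0.335. Of 7 tested receptors and linkers that bind laminin, 1 was called, Itga3, an integrin chain for the laminins of mature epithelia, which fell (log2 fold change -2.42 with LIF and -2.46 with OSM).

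Ordered by level in TPM, Lamc1 and Lamb1 came first and second in each group. In -LIF-ESCs they were followed by Dab2, Lama1, Gata4, Pdgfra, Gata6, Sox17, Cubn and Sox7, where the libraries of the neighbours Gata4 and Pdgfra overlapped and so did those of Cubn and Sox7. In LIF-ESCs the order after Lamb1 was Lama1, Dab2, Gata4, Pdgfra, Sox7, Gata6, Cubn and Sox17, with no overlap between neighbours. In OSM-ESCs it was Lama1, Dab2, Pdgfra, Gata4, Gata6, Sox7, Cubn and Sox17, with overlaps between Pdgfra and Gata4 and between Cubn and Sox17. Sox7 thus moved from the last place without cytokine to above Gata6 with LIF. Laminin transcripts held most of the summed TPM of the 10 genes, which was 185 and 190 without cytokine, 383 and 379 with LIF and 353 and 344 with OSM.

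Of the signals that set Gata6 against Nanog in the embryo, Fgfr2 and Fgf4 were higher with the cytokines and Nanog was lower. Fgfr2, the FGF receptor of the primitive endoderm, rose from 6.88 and 7.18 TPM without cytokine to 20.1 and 19.8 TPM with LIF and 21.6 and 20.9 TPM with OSM (log2 fold change 1.38 and 1.47). Fgf4, the ligand made by the epiblast, was at 64.4 and 63.3 TPM, 140 and 137 TPM, and 116 and 111 TPM (1.10, called, and 0.82). Nanog was at 436 and 431 TPM without cytokine, 289 and 291 TPM with LIF and 270 and 252 TPM with OSM, with log2 fold changes of -0.58 and -0.73 that passed the adjusted p but not the fold limit. Fgfr1 had -0.56 and -0.33, and the adaptor Grb2 -0.58 and -0.59. Of these 5 genes, 2 were called higher with LIF and 1 with OSM, and 0 lower.

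The derivatives of the primitive endoderm were checked by their own markers. Ttr and Afp, the secreted proteins that define the visceral endoderm, were at or near 0 in every library (0 to 0.175 TPM and 0 to 0.131 TPM), and Apoa1 stayed at or under 0.572 TPM. Of 22 visceral endoderm markers, 10 were tested. In LIF-ESCs 3 were called higher and 3 lower, and with OSM 2 higher and 3 lower. Spink1 (log2 fold change 3.74 with LIF and 4.11 with OSM) and Dpp4 (2.98 and 2.95) rose, while Cited1 (-3.69 and -4.12) and Rbp4 (-1.79 and -1.59) fell. The summed TPM of the list was 167 to 176 without cytokine, 104 to 107 with LIF and 100 to 103 with OSM. Rhox5, a homeobox gene, fell (log2 fold change -1.55 and -1.95), and without it the sum was 62.6 to 68.0, 68.1 to 71.1 and 74.3 to 75.9 TPM. Rhox5 was left out as the most abundant of the genes on this list that were called lower with LIF. No gene that rose was left out, so the sum without Rhox5 was bound to shift toward a rise. Of 12 parietal endoderm markers, 11 were tested, with 4 called higher and 1 lower with LIF and 5 higher and 1 lower with OSM. Thbd, which encodes thrombomodulin, rose by 4.92 and 5.20, from 0.332 and 0.375 TPM to between 39.8 and 49.9 TPM, and Plat, the tissue plasminogen activator, had 0.92 with LIF and was called with OSM (1.23). Krt19, also a keratin of other simple epithelia, fell from 573 and 556 TPM (log2 fold change -7.66 and -7.05). The summed TPM of the list was 965 to 986 without cytokine, 454 to 465 with LIF and 519 to 533 with OSM. Without Krt19, left out by the same rule and with the same limit, the sum was 410 to 413, 452 to 462 and 516 to 530.0 TPM.

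Srgn, a proteoglycan core protein on the parietal endoderm list and also abundant in blood cells, resembled Cubn between the cytokines. It was at 0.282 and 0.685 TPM without cytokine, 9.61 and 10.9 TPM with LIF and 2.79 and 2.10 TPM with OSM. Its log2 fold change was 2.94 with LIF and 1.22 with OSM against -LIF-ESCs, and -1.71 between OSM-ESCs and LIF-ESCs (adjusted p = 0.0434). When any 1 library was left out, 0 genes of the whole table were called lower with OSM than with LIF.

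**Figure D4:**
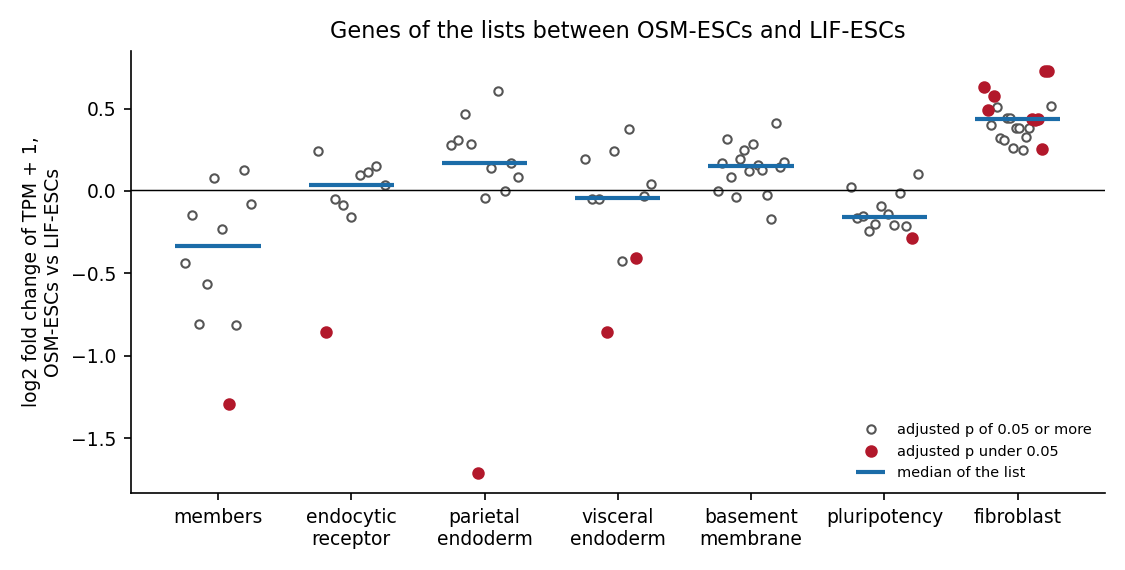
Log2 fold change of TPM + 1 between OSM-ESCs and LIF-ESCs for the tested genes of 7 lists, 1 circle per gene, filled red at an adjusted p under 0.05 with no fold limit, with a blue line at the median of each list. The medians run from -0.335 for the 10 members to 0.434 for the fibroblast markers, Cubn and the parietal endoderm gene Srgn lie lowest, and Amn, at -0.86, appears in both the endocytic receptor and the visceral endoderm list.

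Markers of other cell types moved with the groups as well, and because these are bulk samples, more cells of a type cannot be told apart from more RNA per cell. Fibroblast markers were higher with the cytokines, as Pdgfra was. Of 22 tested, 17 were called higher and 1 lower with LIF, and 17 higher and 0 lower with OSM. Lox rose by 6.71 and 7.14, Fbln2 by 5.39 and 5.83, Prrx1 by 3.98 and 4.36 and Col3a1 by 3.59 and 3.99 on the log2 scale. The defining markers Col1a1, Col1a2 and Thy1 were at 25.02 and 22.8, 5.41 and 5.63, and 7.96 and 5.78 TPM without cytokine, and none of these was at 0 in any library. The summed TPM of the list was 748 to 781 without cytokine, 1404 to 1406 with LIF and 1981 to 1986 with OSM. Between OSM-ESCs and LIF-ESCs all 22 tested markers were higher with OSM, 9 of them at an adjusted p under 0.05 and 0 past the fold limit, with a median log2 fold change of 0.434. This is the opposite direction to 8 of the 10 genes. The part of fibroblast RNA in the levels of Pdgfra and of the laminin chains was not tested.

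Definitive endoderm also expresses Sox17 and Gata factors, and its markers fell with the cytokines. Of 10 tested markers of definitive endoderm and mesendoderm, 0 were called higher and 8 lower in both comparisons, and the list summed to 121 to 126 TPM without cytokine, 24.8 to 25.6 TPM with LIF and 24.5 to 25.1 TPM with OSM. Those that fell included T, which encodes brachyury (log2 fold change -5.13 and -5.01), Lhx1 (-2.27 and -2.31), Mixl1 (-1.23 and -1.11) and Gsc (-1.34 and -1.56). Of 6 tested trophoblast markers, 5 were called lower with LIF and 4 with OSM, among them Cdx2 (-2.16 and -1.61), and 0 were called higher. Their sum was 89.0 to 89.6 TPM without cytokine, 28.2 to 29.3 TPM with LIF and 29.8 to 30.5 TPM with OSM. Of 4 tested markers of cardiac mesoderm, where Gata4 and Gata6 also act, 1 was called higher and 3 lower in both comparisons, and the sum was 44.0 to 48.3, 6.05 to 7.36 and 7.07 to 7.71 TPM. The cardiac gene Tnnt2 was under 1 TPM in every library. Of 3 tested endothelial markers 0 were called, and the list had sums of 32.2 to 32.9, 43.5 to 43.7 and 36.0 to 37.3 TPM. Most of each sum was Pecam1, at 25.8 to 37.9 TPM over the libraries. The endothelial cadherin Cdh5 stayed at or under 0.358 TPM, and Tek, the other defining marker, was at 3.44 to 4.05 TPM. In these 4 lists the part of such cells in the levels of the 10 genes was not tested.

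Of 12 pluripotency genes tested, 7 were called higher and 1 lower with LIF and likewise with OSM. The gene called lower was Dppa3 (log2 fold change -1.41 and -1.31), and Nanog was lower without passing the fold limit. The 12 genes summed to 2249 to 2275 TPM, 4119 to 4262 TPM and 3844 to 3895 TPM. Pou5f1 rose by 1.09 and 1.12 on the log2 scale, and Sox2 had 0.71 and 0.54. Nr0b1 rose by 3.90 and 3.62, and Klf4 by 2.81 and 2.67. Between OSM-ESCs and LIF-ESCs 0 were called, and the median of their log2 fold changes was -0.159. The values of 10 were lower with OSM and those of 2 higher. At an unadjusted p under 0.05, 8 of the 12 were lower, against 5.5% of all genes, and 1 was lower at an adjusted p under 0.05. In 8 both OSM-ESCs libraries were below both LIF-ESCs libraries, as in 20.9% of all genes. A lean toward lower values with OSM was thus not particular to the 10 genes.

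Over the 6 libraries, the genes with the pattern most like that of Gata6 were Ptcd3, Pnma2 and Olfr985, with a root mean square difference of centred log2(TPM + 1) of 0.0155, 0.0361 and 0.0364. For Cubn they were Aqp8 (0.0879), Mir6917 (0.178) and Amn (0.210), and for Lama1 they were Serpinb6c (0.153), Reep6 (0.207) and Gys1 (0.263). Aqp8, a water channel gene, was at 0 and 0.136 TPM without cytokine, 1.89 and 2.24 TPM with LIF and 0.501 and 0.209 TPM with OSM. Reep6 was at 6.77 and 7.29 TPM, 52.3 and 50.6 TPM, and 37.3 and 39.4 TPM, a range of levels close to that of Lama1. These are descriptions of likeness over 6 libraries in 3 groups and carry no test.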

How the data were processed

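Total mRNA of 6 mESC libraries was selected with poly-T beads. Per the labels and the study's methods, reads were trimmed with Trimmomatic, aligned to mm10 with HISAT2 and counted per gene with featureCounts. The authors deposited TPM values for 28584 symbols. The annotation, the strand setting and the step from counts to TPM are not given in the sources used here. The authors tested counts with DESeq2 at a log2 fold change of 1, and that test was not repeated because TPM were used here.

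TPM + 1 (pseudocount 1) were log2 transformed and fitted with limma 3.58.1 (R 4.3.3, eBayes with a trend), without a replicate block. The 3 groups shared 1 spread (median residual SD 0.0862) with 3 residual degrees of freedom. Benjamini-Hochberg adjustment ran over the 18556 genes. Reads were recovered with exon lengths of GENCODE M21 (GRCm38), where 28405 symbols (99.4%) were found once, and 95.4% of matched values were whole within 0.02 reads. Gata6 and Lama1 gave no whole reads, so no read counts are printed for them. Counting intervals are exact binomial, at 95%, and cover counting error alone. Replicates differed by more than sampling noise (mean chi-square per gene 1.99 to 3.34).

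The 10 genes, the lists and the rules were chosen with earlier results of these data known. Besides the 10 genes, the text names genes of short lists fixed by name (GATA and SOX-F relatives, laminin chains, PDGF, primitive endoderm signals), up to 4 called genes of largest change in every other list and comparison, the defining markers of each cell type, and for Gata6, Cubn and Lama1 the 3 genes of most similar pattern. Gm13270 is named for its overlap with Cubn, and Pecam1 for its part in the endothelial sum. The 15 lists besides the 10 genes came from general knowledge, and some genes stand on 2 lists. Some results of these lists are not reported here. Alternatives were a pseudocount of 0.1, no filter, a minimum of 5 TPM, eBayes without a trend, a replicate block, a fit of only the 2 groups compared, median-ratio rescaling, no fold limit and each library left out, with the lone library assumed to vary like the others. Limma voom on the recovered reads was added after seeing the data. Plots were made with Python 3.11.15 and matplotlib 3.10.9.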

Additional observations from a re-analysis of the deposited data

Results flagged for a closer look

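Of the 10 genes, Cubn was the 1 called between the cytokines by the limma fit of TPM + 1. Against the same -LIF-ESCs libraries it rose by 1.70 in LIF-ESCs and had 0.41 in OSM-ESCs on the log2 scale. The difference, OSM-ESCs against LIF-ESCs, was -1.29 (limma adjusted p = 0.0471, 95% interval -1.67 to -0.91), and both OSM-ESCs libraries (0.590 and 0.397 TPM) were below both LIF-ESCs libraries (2.52 and 2.78 TPM). The adjusted p ranged from 1.61e-09 to 0.273 over 13 alternatives, and 3 of them kept the call. Cubn passed the minimum of 1 TPM through LIF-ESCs, the group where it is high, and with no minimum the adjusted p was 0.0444. Of the 8 genes that reached the minimum in more than 1 group, 0 were called.

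Among the genes of the other lists, Srgn was called as well, at -1.71 between OSM-ESCs and LIF-ESCs (limma adjusted p = 0.0434), and against -LIF-ESCs it had 2.94 with LIF and 1.22 with OSM.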

How the results depend on the processing

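Over the alternatives, 409 of 438 values of the 10 genes kept their direction and their side of the call, 12 lost a call, 12 gained one and 5 changed sign. This tally includes values that had little room to change. The alternative with no fold limit is the main fit itself, so it could neither change a sign nor lose a call. Leaving out a library of the group not compared leaves the fold change as it was. A minimum of 5 TPM left 6 of the 10 genes in the test, of which 4 were called higher in LIF-ESCs and 3 in OSM-ESCs. With each library left out, 7 genes were called higher in LIF-ESCs and 5 to 6 in OSM-ESCs. The single lower call between OSM-ESCs and LIF-ESCs was Cubn. It was lost with a pseudocount of 0.1 (adjusted p = 0.0954), without a trend (0.0581) and with only the 2 groups compared (0.106). It was also lost with any 1 library left out, where the log2 fold change of Cubn ran from -1.38 to -1.20. With a minimum of 5 TPM Cubn was not in the test, so that setting cannot bear on its call. Voom on recovered reads, chosen after seeing the data, called 3 genes lower, adding Sox7 (-1.09, adjusted p = 0.000709) and Sox17 (-1.40, adjusted p = 0.0108). Rescaling by the median ratio changed the sign of Lamb1 in LIF-ESCs (-0.0194) and of Sox17 (-0.000881) and Dab2 (-0.0491) in OSM-ESCs. With a library left out, Sox17 in OSM-ESCs ran from -0.0200 (without replicate 2 of -LIF-ESCs) to 0.121, and Pdgfra between OSM-ESCs and LIF-ESCs from -0.00382 (without replicate 1 of OSM-ESCs) to 0.159. The Lamc1 call in LIF-ESCs was lost on rescaling (0.89) and with voom (0.94). Cubn in OSM-ESCs against -LIF-ESCs was called with a pseudocount of 0.1 (1.41) and with voom (1.88), and Sox17 in LIF-ESCs likewise (1.38 and 1.43). Where a value changed, the cause was not tested.

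Same-numbered replicates did not deviate together (correlations of their deviations from the group means -0.0433, -0.0234 and 0.0265). This shows no shared deviation, and it cannot settle whether same-numbered libraries were grown or prepared together. With a replicate block the lower call between OSM-ESCs and LIF-ESCs went from 1 to 0 (Cubn adjusted p = 0.148), and no other member call changed.

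Over the whole table, OSM-ESCs against LIF-ESCs had 6 higher and 9 lower calls. These became 0 and 0 with the block or with only 2 groups, 3 and 3 with a pseudocount of 0.1, 23 and 28 with voom and 86 and 24 with no fold limit. Without a filter 13 were higher, with a minimum of 5 TPM 3 were higher, without a trend 4 were lower, and with a library left out 0 to 1 were higher and 0 lower. Lower calls in LIF-ESCs were 1502 against 996 with a minimum of 5 TPM and 2314 with voom, and in OSM-ESCs 1459 against 2333 with voom. Without the fold limit 7822 genes were higher and 4809 lower in LIF-ESCs, and 7958 were higher and 4722 lower in OSM-ESCs. With 2 libraries a group and 2 to 3 reads of Sox7 per -LIF-ESCs library, folds of the lowest genes are imprecise.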
